A study of Mus musculus with 9 samples.

Results

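The proteasome genes described here are the gene symbols that begin with Psma, Psmb, Psmc, Psmd, Psme, Psmf or Psmg followed by a digit and that reached at least 100 counts summed over 9 RNA-seq libraries of mouse anterior lens capsule. Of 50 such symbols, 49 met that minimum, out of 17527 symbols in the count table. The remaining one, Psma8, encodes the alpha subunit of the testis and had 3 counts in all, and Psmb11, the thymus-specific catalytic subunit, was not analysed here. The 49 comprise 7 alpha subunits, 7 constitutive beta subunits (4 structural, 3 catalytic), 3 inducible catalytic subunits, 17 subunits of the 19S cap, 7 assembly chaperones, 4 activators and the inhibitor Psmf1. The other 3 symbols are Psmc3ip and Psme3ip1, which encode proteins named for binding a subunit, and Psme2b, a copy of the activator gene Psme2. The anterior lens capsule covers the front of the lens and carries the lens epithelium on its inner face. Libraries fall into 3 groups of 3, namely aged mice that received epigallocatechin gallate (EGCG, the main catechin of green tea), aged control mice and young control mice. The sources used here give no strain, sex, age, dose or duration, and do not say whether the 3 libraries of a group come from separate animals. The p-values therefore measure the spread between these libraries alone, which may be technical.

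The proteasome is the protease that removes ubiquitin-tagged proteins. Its 20S core is a barrel in which outer rings of alpha subunits gate access to inner rings of beta subunits, some of which cut the substrate, and its 19S cap binds ubiquitin chains, takes them off and feeds the unfolded protein into the core with a ring of ATPases. Interferon induces alternative catalytic subunits that replace the constitutive ones and form the immunoproteasome, which makes peptides for MHC class I, while the 11S activators and PA200 open the core without ubiquitin. In the lens, where crystallins last for life, ubiquitin-dependent turnover is known mainly from the epithelium and the young outer fibres.

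Libraries held 13184169 to 16528179 counts, so that 3 counts correspond to between 0.182 and 0.228 CPM. Levels compared between groups are CPM, that is counts divided by library size and brought to a common total, scaled with TMM factors, and levels compared between genes are FPKM, which also divide by gene length. All 15 epithelial marker genes of the lens were listed with counts and took 0.203% to 0.208% of the counts in aged EGCG, 0.195% to 0.223% in aged control and 0.225% to 0.233% in young control libraries. Markers of the retina, a tissue that the label does not name, were present too: 35 markers took 1.20% to 1.21% of the counts in aged EGCG, 0.153% to 0.167% in aged control and 3.17% to 3.19% in young control libraries. All 35 were lower in aged control than in young control capsule, and 34 were higher in aged EGCG than in aged control capsule. The 21 lens fibre markers took 3.98% to 4.09%, 4.14% to 4.33% and 4.93% to 4.94% of the counts in the same order of groups. These shares are of raw counts, and TMM scaling changed the order of groups. In TMM-scaled CPM the fibre markers summed to 40272.4 to 41632.8, 46380.5 to 48282.4 and 43662.3 to 44223.5. The epithelial markers summed to 2053 to 2117, 2215 to 2411 and 2014 to 2060, so aged control was highest in both.

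All 49 genes passed the filter on low counts. Psmc5, an ATPase of the 19S base, was the most abundant per length, at 408 ± 18.1 FPKM in aged EGCG, 388 ± 11.5 in aged control and 222 ± 6.40 in young control capsule (SD, n = 3 each). Psmd4, the ubiquitin receptor of the base also called Rpn10, followed with 261, 257 and 149 FPKM. Subunits that sit in the complex in equal numbers had unequal transcript levels: within the ATPase ring Psmc5 exceeded Psmc6 by 14.9-fold in aged EGCG and in aged control capsule and by 7.27-fold in young control capsule. The alpha subunits had 21.7 to 73.8 FPKM in aged EGCG, 21.2 to 71.1 in aged control and 25.3 to 61.6 in young control capsule, and the constitutive beta subunits had 42.2 to 173, 42.3 to 168 and 32.9 to 138 FPKM. The inducible catalytic subunits were the rarest of the core genes, with Psmb9 at 1.36, 1.57 and 0.878 FPKM. The plot of levels by role shows these values in each library.

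**Figure D1:**
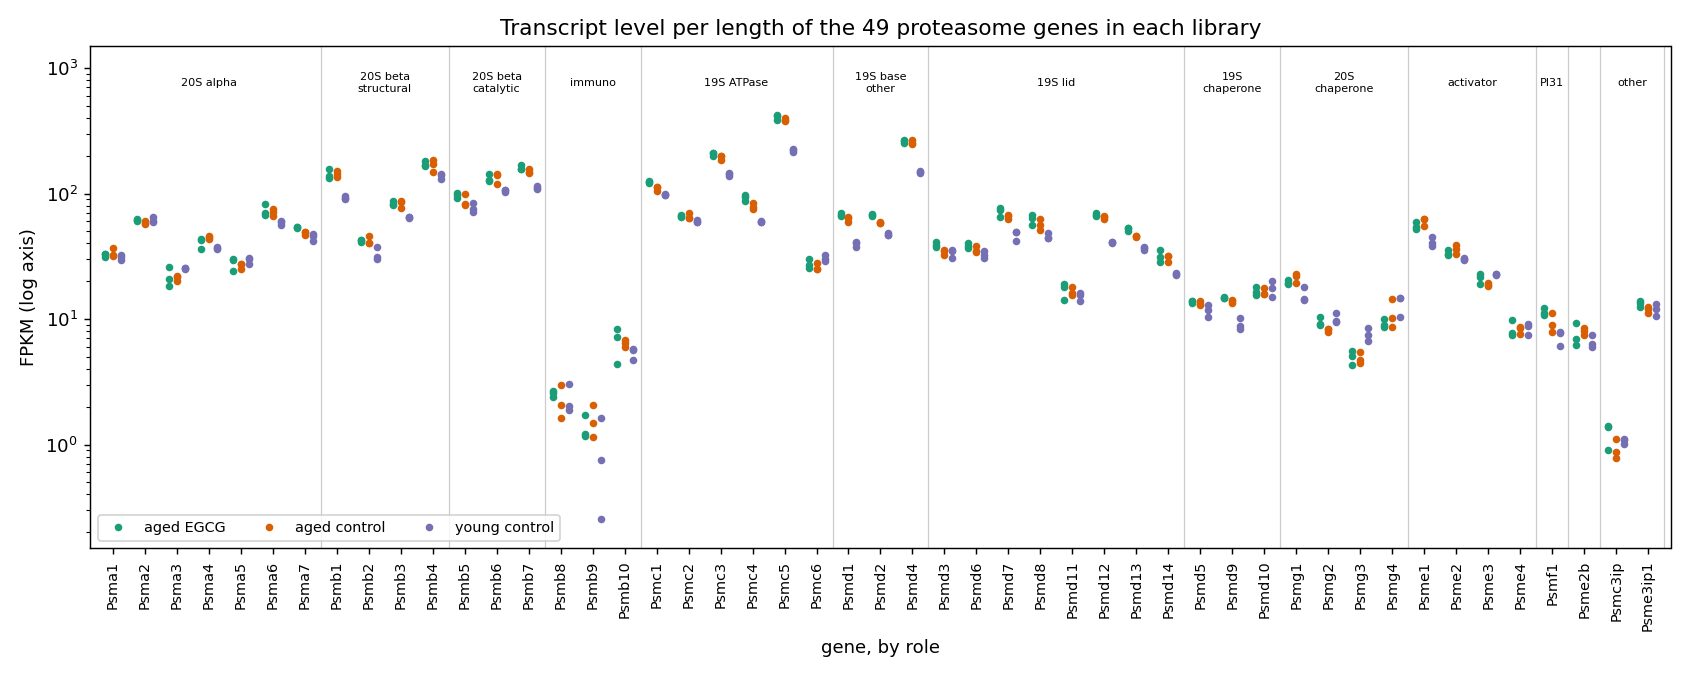
Deposited FPKM (log axis) of each of the 49 proteasome genes, grouped by role, with 1 point per library for aged EGCG (left), aged control (middle) and young control (right). Psmc5 and Psmd4 lie highest and the 3 inducible catalytic subunits lie far below the other core subunits in all 9 libraries.

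Aged control capsule held more proteasome transcript than young control capsule in nearly every role of the complex. At an adjusted p under 0.05 in edgeR's quasi-likelihood test, 39 of the 49 genes were higher and 0 were lower, where 35.4% of all 13711 genes tested were called higher and 33.8% lower (69.2% in either direction). At an unadjusted p under 0.05 the counts were also 39 and 0, and DESeq2 called 38 higher and 0 lower. Their median log2 fold change was 0.60, against 0.023 over all genes, and 48 of the 49 estimates were positive. In 39 genes every aged control library lay above every young control library, which held for 36.9% of all genes, while 35.3% had every aged control library below and 72.1% separated either way. The changes were moderate: 25 genes had an estimate of at least 1.5-fold and 3, Psmc5, Psmd4 and Psmb9, of at least 2-fold. In bulk tissue, fewer cells of a type and less RNA per cell cannot be told apart. The fall in retinal transcript stated above runs alongside this comparison, and its part in the result was not tested.

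The size of this difference depended on how libraries were scaled. With library size only, 26 of the 49 were higher and 4 lower, beside 2937 and 6445 of all 13711 genes tested. Scaled to the lens fibre markers, 23 were higher and 4 lower, beside 2650 and 6657 of all genes. Under those scalings the median of all genes moved to −0.30 and −0.34 on the log2 scale, and the proteasome genes' median stayed 0.58 above it in both. The fibre markers are not an unchanged reference. Under TMM scaling 14 of the 21 were called higher with age and 7 lower, with a median log2 fold change of 0.41. Proteasome genes are also short, with a median length of 1375 bases against 3722 over all genes tested, and across all genes the change with age fell with length (Spearman rho = −0.33, across genes, which share libraries and are not independent). With that trend removed, 26 were higher and 6 lower, and their median was 0.18 above that of all genes. Of all 13711 genes tested, 4660 were then called higher and 4494 lower. Under all 21 settings run, the same 20 genes were called higher, namely Psma4, Psmb1, Psmb3, Psmb4, Psmb6, Psmb7, Psmc3, Psmc4, Psmc5, Psmd1, Psmd2, Psmd4, Psmd7, Psmd8, Psmd9, Psmd12, Psmd13, Psmd14, Psme1 and Psmg1.

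**Figure D2:**
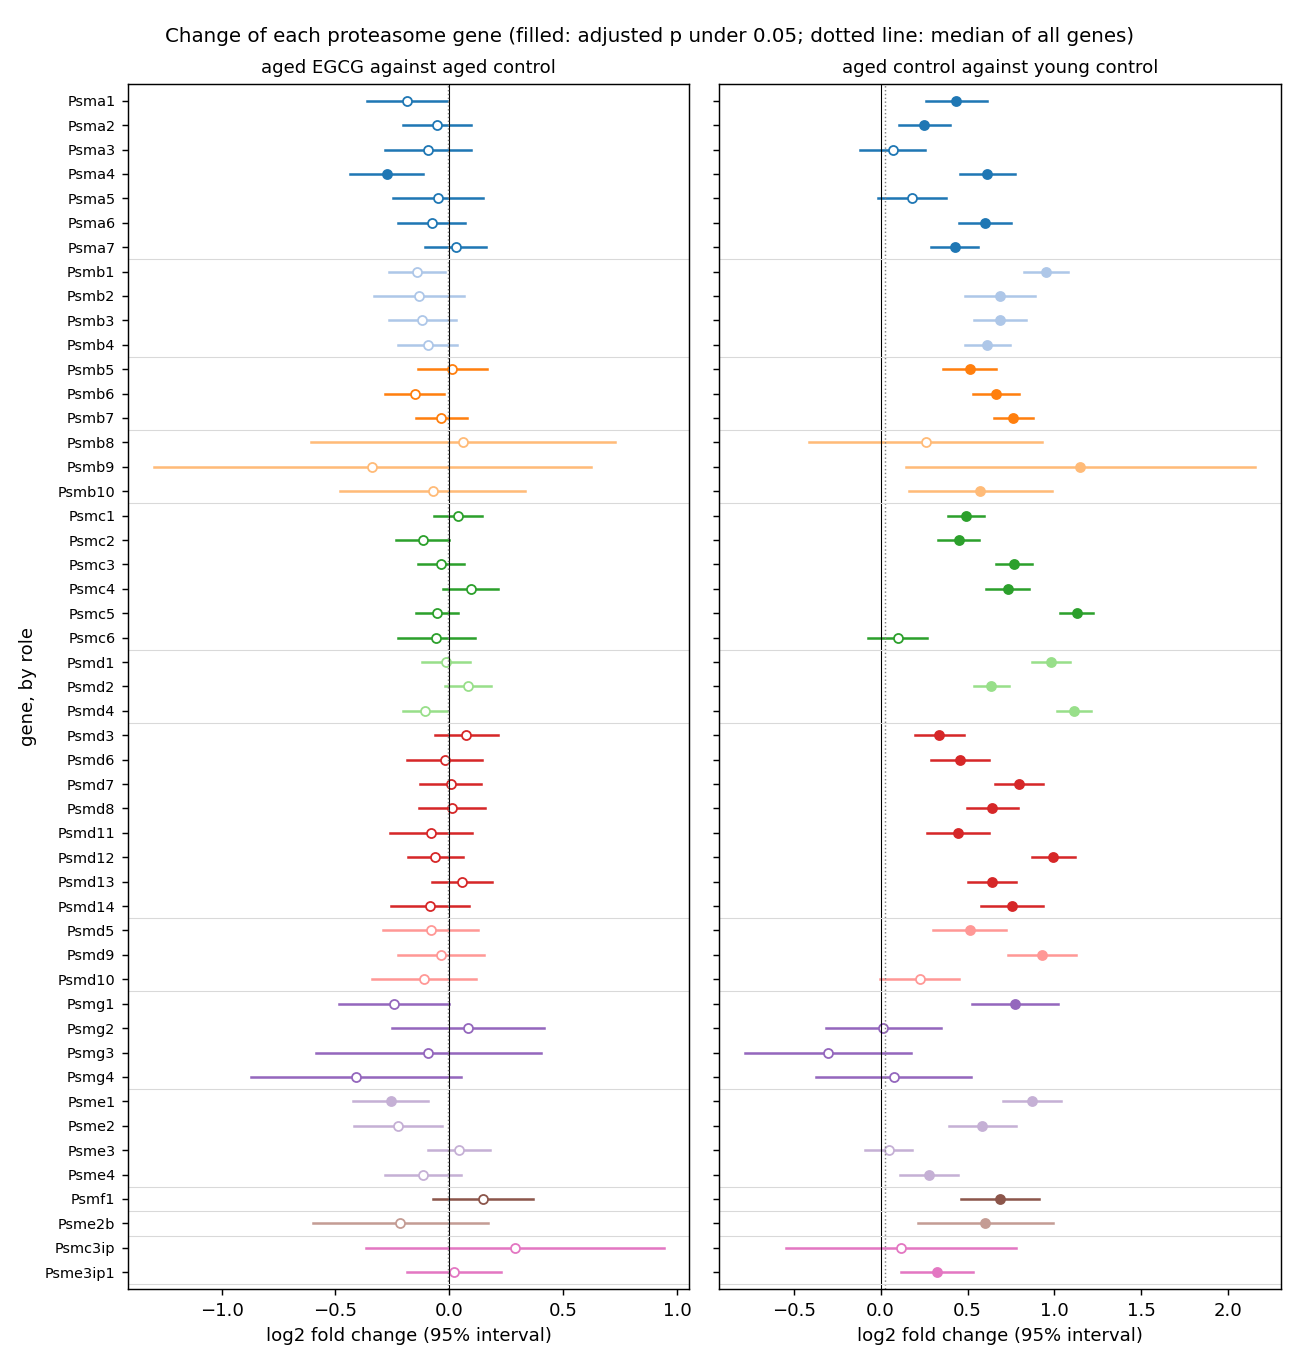
Log2 fold change of each proteasome gene with its 95% interval, for aged EGCG against aged control (left) and aged control against young control (right), coloured by role. Filled points passed an adjusted p under 0.05 in edgeR's test. On the right 39 points are filled and lie above 0, and on the left 2 are filled, Psma4 and Psme1, both below 0.

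To show sequence near the start of genes that moved together or apart, 100 bases upstream of the RefSeq start (GRCm38.p6, 5′ to 3′ on the gene's strand) are given for 6 members. Capitals mark a match to the antioxidant response core TGACNNNGC, which NRF1 and NRF2 bind, to the core of the interferon-stimulated response element (GAAA, any 2 bases, GAAA) or to the STAT site TTCNNNGAA, searched on both strands. Psmc5 and Psmd4 had the largest changes with age among well-counted genes, Psmd9 changed most among chaperones, Psmb5 and Psmb6 are constitutive catalytic subunits, and Psmb8 is an inducible one.
Psmc5: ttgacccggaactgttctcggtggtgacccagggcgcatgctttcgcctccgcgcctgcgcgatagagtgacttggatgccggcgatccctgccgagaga
Psmd4: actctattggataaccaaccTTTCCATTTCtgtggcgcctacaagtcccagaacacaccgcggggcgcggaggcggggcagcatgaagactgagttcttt
Psmd9: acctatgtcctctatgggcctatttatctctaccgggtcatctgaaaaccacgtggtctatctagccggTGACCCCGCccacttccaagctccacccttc
Psmb5: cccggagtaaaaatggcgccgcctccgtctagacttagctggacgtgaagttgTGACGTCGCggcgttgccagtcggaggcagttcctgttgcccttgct
Psmb6: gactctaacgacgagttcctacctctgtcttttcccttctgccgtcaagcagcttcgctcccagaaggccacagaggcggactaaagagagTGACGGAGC
Psmb8: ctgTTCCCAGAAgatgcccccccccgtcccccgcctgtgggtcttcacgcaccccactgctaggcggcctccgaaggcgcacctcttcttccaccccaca
The windows lie at chr11:106256085-106256184 (Psmc5, plus strand), chr3:95042615-95042714 (Psmd4, minus), chr5:123228090-123228189 (Psmd9, plus), chr14:54617996-54618095 (Psmb5, minus), chr11:70525257-70525356 (Psmb6, plus) and chr17:34198095-34198194 (Psmb8, plus). The marked match is the antioxidant core in Psmd9, Psmb5 and Psmb6, the interferon core read on the opposite strand in Psmd4 and the STAT site in Psmb8, and Psmc5 holds no match in this window. GENCODE places some starts elsewhere. By its coordinates the windows of Psmb8 (gene at chr17:34197721-34201454) and Psmd9 (chr5:123169413-123250131) lie inside the gene, and those of Psmc5 and Psmb5 reach into it.

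RefSeq promoter windows, 250 bases before to 50 bases after a start, were held for 42 of the 49 genes. The antioxidant core was present in 6 of them (14.3%), against 14.0% of 27025 genes with a window. The interferon core was present in 5 (11.9%), namely Psmb3, Psmd4, Psmd9, Psme1 and Psmg4, against 3.99% of genes, and the STAT site in 3 (7.14%), against 9.55%. A CCAAT box, which can overlap the other motifs, was present in 15 (35.7%), against 41.1%. These counts describe letters in a window, and the windows of proteasome genes were richer in G and C, with a median of 58.2% against 52.7% over all windows.

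Of the 17 base and lid subunits of the 19S cap, 16 were higher in aged control than in young control capsule, with a median log2 fold change of 0.64 and a range of 0.099 (Psmc6) to 1.13 (Psmc5). With the length trend removed 14 were higher and 1, Psmc6, was lower, and on the lens fibre scale 11 were higher and 1 was lower. Psmc5 (Rpt6, chr11:106256154-106263120, plus strand, in GRCm38) had 545, 543 and 500.2 CPM in aged EGCG, 546, 568 and 535 CPM in aged control, and 258, 246 and 250.1 CPM in young control libraries. Every aged library, treated or not, lay above every young one by a wide margin, and the 2 aged groups overlapped. Aged control over young control gave 1.13 on the log2 scale (SE 0.047, edgeR adjusted p = 1.32e-25). Psmc6 (Rpt4), another ATPase of the same ring, had 53.2, 47.2 and 44.6 CPM in aged EGCG, 49.5, 54.5 and 46.9 CPM in aged control, and 46.0, 50.1 and 44.9 CPM in young control libraries, so all 3 groups overlapped (0.10, SE 0.083, adjusted p = 0.295).

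All 3 base subunits outside the ATPase ring were higher with age. Psmd4 (chr3:95032694-95042614, minus strand) had 374, 353 and 366 CPM in aged EGCG, 397, 408 and 372 CPM in aged control, and 183, 180.2 and 181 CPM in young control libraries, a log2 fold change with age of 1.11 (SE 0.049, adjusted p = 8.66e-25). The young libraries lay within 3 CPM of each other and far below the aged ones. Psmd1 (Rpn2), a large scaffold subunit of the base, had 225 ± 7.26 CPM in aged EGCG, 227 ± 5.06 in aged control and 115 ± 5.35 in young control capsule (SD, n = 3 each). The other scaffold, Psmd2 (Rpn1), had 231, 233 and 223 CPM in aged EGCG, 220.2, 214 and 215 CPM in aged control, and 137, 138 and 142 CPM in young control libraries. Its 3 groups did not overlap, and the difference between aged control and young control capsule was 0.64 on the log2 scale (SE 0.051, adjusted p = 2.13e-15). Part of the Psmd2 count is uncertain, since 17.8% of its 50-base stretches also occur in transcripts of other annotated genes. Psmc2 (Rpt1), a further ATPase, had the smallest called change of the ring, with 124, 118 and 120.2 CPM in aged EGCG, 129.6, 139 and 124 CPM in aged control, and 96.9, 96.0 and 94.5 CPM in young control libraries (0.45, SE 0.058, adjusted p = 3.82e-09), and it lost its call on the lens fibre scale and with library size only.

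Each of the 8 lid subunits was higher in aged control than in young control capsule, among them Psmd14 (Rpn11), the deubiquitinase that removes the ubiquitin chain (log2 fold change 0.76, SE 0.088, adjusted p = 2.24e-10). Psmd12 (Rpn5, chr11:107479484-107504362, plus strand) changed most, with 122, 119 and 115 CPM in aged EGCG, 129, 126 and 117 CPM in aged control, and 62.44, 62.03 and 62.40 CPM in young control libraries. Its young libraries were almost identical and lay below all 6 aged ones (0.99, SE 0.061, adjusted p = 2.37e-19). Psmd3 (Rpn3) changed least, with 85.7, 81.5 and 89.4 CPM in aged EGCG, 86.4, 77.0 and 80.1 CPM in aged control, and 58.3, 67.1 and 67.3 CPM in young control libraries (0.34, SE 0.070, adjusted p = 3.7e-05), and it lost its call with library size only, with the length trend removed and on FPKM and turned to −0.025 on the lens fibre scale.

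In the 20S core the beta subunits changed more than the alpha subunits. All 7 constitutive beta genes were higher in aged control than in young control capsule (median log2 fold change 0.69), and 5 of 7 alpha genes were (median 0.43). With library size only, all 7 beta genes but only 2 alpha genes were called higher, and 1 alpha gene, Psma3, was lower. With the length trend removed, 5 beta genes were higher and 0 lower, against 1 alpha gene higher and 3 lower. Among alpha genes, Psma4 (chr9:54950790-54958030, plus strand) had 54.3, 55.2 and 46.3 CPM in aged EGCG, 64.9, 64.0 and 59.6 CPM in aged control, and 39.99, 41.3 and 41.9 CPM in young control libraries, with no overlap between any 2 groups. Its difference between aged control and young control capsule was 0.61 (SE 0.080, edgeR adjusted p = 3.49e-09). Part of the Psma4 count is uncertain, since 11.6% of its 50-base stretches also occur in transcripts of another annotated gene. The share was 15.4% for Psma3 and 49.1% for Psma5, the 2 alpha genes not called. Among beta genes it was 17.8% for Psmb3 and 54.1% for Psmb5, so the contrast of alpha and beta genes carries this uncertainty. Psma2 had the smallest called change, with 59.8, 59.9 and 58.3 CPM in aged EGCG, 65.2, 61.2 and 58.5 CPM in aged control, and 49.5, 51.6 and 54.2 CPM in young control libraries (0.25, SE 0.074, adjusted p = 0.00237), and its direction turned with library size only, on the lens fibre scale, with the length trend removed and on FPKM, where it lay between −0.069 and −0.23.

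Psmb1, a structural beta subunit, had 165, 146 and 138 CPM in aged EGCG, 169.8, 173 and 152 CPM in aged control, and 88.0, 83.5 and 84.5 CPM in young control libraries, and its young libraries lay far below the aged ones (0.95, SE 0.063, adjusted p = 2.97e-18). Psmb4, the structural subunit with the smallest change, had 177, 163 and 159.6 CPM in aged EGCG, 198, 182 and 152 CPM in aged control, and 120.2, 111 and 117 CPM in young control libraries (0.61, SE 0.065, adjusted p = 1.38e-11). The aged groups overlapped in both genes.

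The constitutive catalytic subunits carry the caspase-like (Psmb6), trypsin-like (Psmb7) and chymotrypsin-like (Psmb5) activities, and all 3 were higher in aged control than in young control capsule. Psmb7 had 182, 169 and 166 CPM in aged EGCG, 177, 186 and 167 CPM in aged control, and 107, 102 and 103 CPM in young control libraries (0.76, SE 0.057, adjusted p = 2.09e-16). Psmb6 had 162, 148 and 142 CPM in aged EGCG, 182, 176 and 144 CPM in aged control, and 106, 108 and 103 CPM in young control libraries (0.66, SE 0.065, adjusted p = 1.57e-12). Psmb5 had 85.7, 89.6 and 81.6 CPM in aged EGCG, 98.2, 80.02 and 76.3 CPM in aged control, and 58.5, 55.0 and 65.1 CPM in young control libraries (0.51, SE 0.077, adjusted p = 1.04e-07). The call on Psmb5 held in 16 of the 21 settings, and its estimate was 0.020 with the length trend removed, without a call. In each of the 3 genes the young libraries lay below all aged ones and the aged groups overlapped. The Psmb5 count is uncertain, since 54.1% of its 50-base stretches occur in other transcripts, one of them the pseudogene Psmb5-ps.

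Ratios between roles within a library do not depend on the scaling between libraries, and the plot of ratios gives them by group. The mean FPKM of the 17 cap subunits over that of the 14 constitutive core subunits was 1.18, 1.25 and 1.25 in aged EGCG, 1.12, 1.19 and 1.23 in aged control, and 1.01, 1.02 and 1.01 in young control libraries. Both aged groups lay above the young one without overlap, and they overlapped with each other. The beta to alpha ratio averaged 2.66 ± 0.0305 in aged EGCG, 2.66 ± 0.0784 in aged control and 2.16 ± 0.0595 in young control capsule (SD, n = 3 each), and the ATPase to alpha ratio averaged 3.46, 3.31 and 2.48. In both ratios all 6 aged libraries lay above the young ones. Median transcript length was 1600 bases for the cap, 1255 for the alpha and 949 for the constitutive beta genes, and the ratios were not corrected for the length trend. No test was made on the ratios, which combine several genes.

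**Figure D3:**
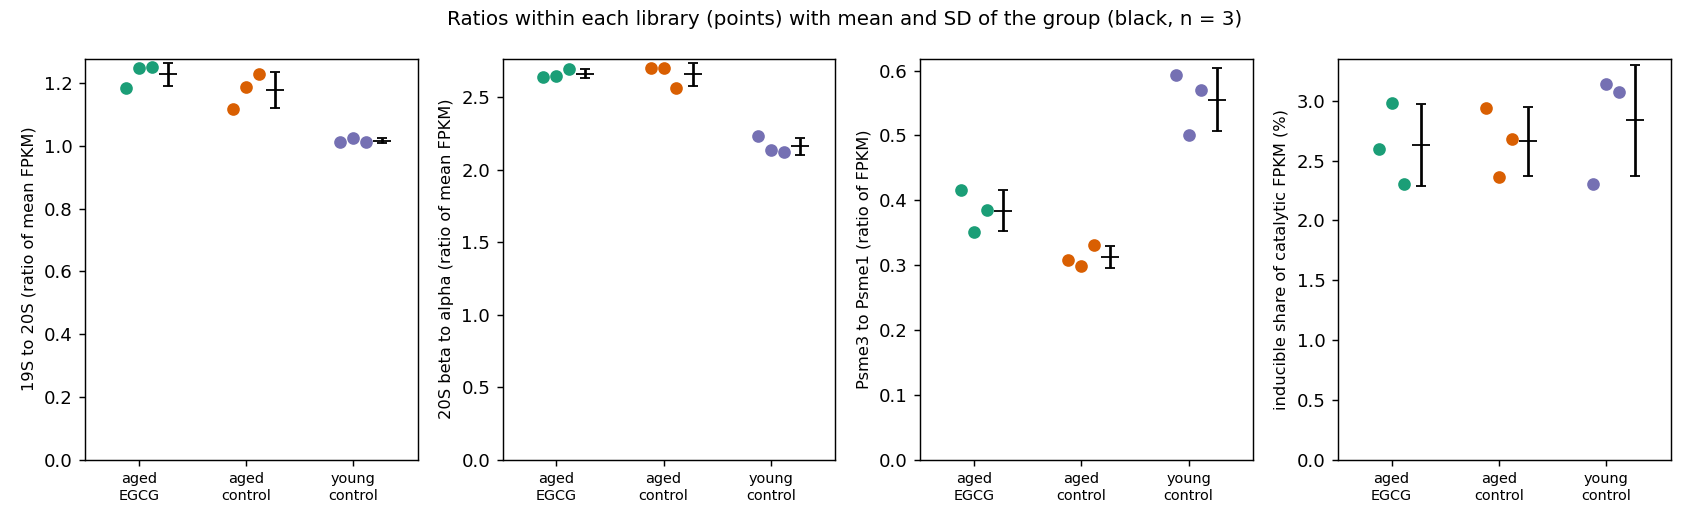
Ratios within each library, drawn as points with the group mean and SD in black (n = 3), for aged EGCG, aged control and young control. The panels show 19S to 20S, beta to alpha and Psme3 to Psme1 as ratios of FPKM, and the inducible share of catalytic subunit FPKM in percent. The first 3 separate young control from both aged groups, and the inducible share overlaps between all 3 groups.

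The immunoproteasome was a small part of the catalytic transcript in every group. Psmb8, Psmb9 and Psmb10, which replace Psmb5, Psmb6 and Psmb7, together made up 2.599%, 2.98% and 2.30% of catalytic subunit FPKM in aged EGCG, 2.94%, 2.36% and 2.68% in aged control, and 2.30%, 3.14% and 3.08% in young control libraries, so the groups overlapped. Psmb10 (chr8:105935735-105938444, minus strand) had 9.23, 10.8 and 5.68 CPM in aged EGCG, 9.77, 9.10 and 8.21 CPM in aged control, and 5.30, 6.55 and 6.36 CPM in young control libraries. Its aged control libraries lay above the young ones (0.57, SE 0.204, adjusted p = 0.0119), and without young control replicate 1 the adjusted p was 0.0627. Psmb8 had 3.22, 2.95 and 3.30 CPM in aged EGCG, 4.13, 2.22 and 2.71 CPM in aged control, and 2.21, 2.06 and 3.30 CPM in young control libraries, with all groups overlapping (0.26, 95% interval −0.41 to 0.93, adjusted p = 0.497). Psmb9 had 1.32, 1.37 and 1.92 CPM in aged EGCG, 2.61, 1.42 and 1.78 CPM in aged control, and 0.252, 1.62 and 0.733 CPM in young control libraries. The groups overlapped, and the young control value of 0.252 CPM rests on 4 counts. Its log2 fold change with age was 1.15 (SE 0.499, adjusted p = 0.0384), but it fell to 0.72 (adjusted p = 0.248) without young control replicate 1, and the adjusted p was 0.179 without aged control replicate 1, 0.0516 without aged control replicate 3 and 0.123 without young control replicate 3. With library size only, on the lens fibre scale, with the length trend removed or on FPKM, 0 of the 3 inducible genes were called. Over the 21 settings Psmb9 was called higher with age in 10. Exons of Psmb9 overlap those of Tap1 on the opposite strand over 212 bases, and the sources used here do not say whether counting used strand.

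Leukocytes are the cells in which these subunits are known to be abundant. Their 20 markers took 0.00521% to 0.00639% of the counts in aged EGCG, 0.00534% to 0.00608% in aged control and 0.0057% to 0.00642% in young control libraries, and the lymphocyte genes Cd3e, Cd3g, Cd79a and Ms4a1 had at most 3 counts in every library. Of the 13 tested, 2 were higher and 1 was lower in aged control than in young control capsule. Of all genes tested, 35.4% were called higher and 33.8% lower in that comparison. Of 10 genes of MHC class I loading and the interferon response, 6 were higher and 1 was lower, beside the same shares of all genes. Among the 6 was B2m, the light chain of MHC class I (0.77, SE 0.118, edgeR adjusted p = 1.7e-07). Nlrc5, the transactivator of class I genes, was lower, at 7.18 ± 1.8 CPM in aged EGCG, 7.21 ± 0.66 in aged control and 19.7 ± 2.4 in young control capsule (SD, n = 3 each).

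Among the activators, the 11S subunits Psme1 and Psme2, which form the interferon-inducible PA28 ring, were higher in aged control than in young control capsule, and Psme3, which forms the nuclear PA28 gamma ring, was not called. Psme1 (chr14:55578123-55581529, plus strand) had 51.9, 53.8 and 58.3 CPM in aged EGCG, 69.7, 67.8 and 58.3 CPM in aged control, and 33.2, 39.1 and 34.7 CPM in young control libraries (0.87, SE 0.083, adjusted p = 7.74e-13). All young libraries lay below all aged ones, and the aged groups met at 58.3 CPM. Psme2 had 35.5, 32.4 and 32.8 CPM in aged EGCG, 40.03, 42.5 and 35.1 CPM in aged control, and 25.4, 26.99 and 26.2 CPM in young control libraries (0.58, SE 0.096, adjusted p = 7.03e-07), a call lost on the lens fibre scale and with the length trend removed. It shares 28.3% of its 50-base stretches with other transcripts, among them Psme2b, so reads could be split between the copies. Psme3 had 90.7, 79.5 and 94.7 CPM in aged EGCG, 90.5, 85.1 and 81.2 CPM in aged control, and 83.0, 82.3 and 83.4 CPM in young control libraries, with aged control and young control overlapping (0.047, 95% interval −0.087 to 0.18, adjusted p = 0.537). It was called lower with age in 5 of the 21 settings, with library size only (−0.28, adjusted p = 0.000397), on the lens fibre scale and in the FPKM settings, and was not called with RLE size factors or DESeq2. Within libraries the ratio of Psme3 to Psme1 FPKM was 0.415, 0.352 and 0.386 in aged EGCG, 0.309, 0.299 and 0.331 in aged control, and 0.593, 0.5002 and 0.571 in young control libraries, and no 2 groups overlapped. The 2 genes differ in length, with 4112 bases for Psme3 and 977 for Psme1, and this ratio was not corrected for the length trend.

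Psme4, which encodes PA200, had 60.4, 58.1 and 75.6 CPM in aged EGCG, 66.3, 72.4 and 71.3 CPM in aged control, and 60.0, 62.2 and 50.9 CPM in young control libraries. Its aged control libraries lay above the young ones (0.28, SE 0.082, adjusted p = 0.00253), with a value of −0.042 on library size only, and the call was lost without young control replicate 3 (adjusted p = 0.053). Psmf1, the inhibitor PI31, had 40.8, 39.1 and 44.4 CPM in aged EGCG, 45.6, 31.5 and 35.0 CPM in aged control, and 19.4, 25.5 and 24.8 CPM in young control libraries (0.69, SE 0.112, adjusted p = 6.03e-07). All young libraries lay below the aged ones, and aged control replicate 1 stood above the other 2 of its group.

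Of the 3 chaperones of the 19S base, Psmd9 (p27) and Psmd5 (S5b) were higher in aged control than in young control capsule and Psmd10 (gankyrin) was not called. Psmd9 had 38.6, 39.6 and 38.5 CPM in aged EGCG, 41.7, 39.1 and 38.8 CPM in aged control, and 23.2, 19.4 and 20.3 CPM in young control libraries (0.93, SE 0.097, adjusted p = 1.02e-11). Psmd5 had 29.2, 28.9 and 27.7 CPM in aged EGCG, 30.7, 29.5 and 30.7 CPM in aged control, and 23.5, 18.95 and 21.3 CPM in young control libraries (0.51, SE 0.105, adjusted p = 3.13e-05), a call that held in 16 of the 21 settings. In both genes the young libraries lay below all aged ones, and for Psmd9 25.5% of the exonic bases overlap a noncoding RNA on the opposite strand. Of the 4 chaperones that build the 20S core, Psmg1 (PAC1) was higher, with 20.5, 21.8 and 20.1 CPM in aged EGCG, 25.9, 22.4 and 25.6 CPM in aged control, and 13.1, 16.8 and 13.3 CPM in young control libraries (0.77, SE 0.122, adjusted p = 3.07e-07). Psmg2, Psmg3 and Psmg4 were not called, with log2 estimates of 0.015, −0.30 and 0.075, and Psmg3 averaged 4.42 ± 0.616 CPM in aged EGCG, 4.71 ± 0.601 in aged control and 5.82 ± 0.752 in young control capsule (SD, n = 3 each). Psmg3 was called lower with age under 6 of the 21 settings.

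EGCG was followed by little change in proteasome transcripts of the aged capsule. Between aged EGCG and aged control libraries, 0 of the 49 genes were higher and 2 were lower at an adjusted p under 0.05, where 13.8% of all genes tested were called higher and 10.3% lower (24.1% in either direction). At an unadjusted p under 0.05, 0 were higher and 8 lower, and DESeq2 also called 0 higher and 2 lower. The median log2 fold change was −0.061, against −0.0038 over all genes, with 34 estimates below 0 and 15 above. The groups did not overlap in 5 genes that were lower (Psma1, Psma4, Psmd5, Psme1 and Psmg1) and 1 that was higher (Psmd2), against 15.7% and 17.8% of all genes (33.5% either way). The 2 called genes, whose values in each library are given above, were the alpha subunit Psma4 (51.9 ± 4.93 CPM in aged EGCG and 62.8 ± 2.88 CPM in aged control capsule, SD, n = 3 each), which differed by −0.27 on the log2 scale (SE 0.079, edgeR adjusted p = 0.00739), and the activator Psme1 (54.7 ± 3.29 and 65.3 ± 6.08 CPM), with −0.26 (SE 0.082, adjusted p = 0.0158). Both stayed above all young control libraries.

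The call on Psme1 was lost when any of aged EGCG replicates 1 and 2 or aged control replicates 1 and 2 was left out (adjusted p 0.0545 to 0.0929), and the call on Psma4 without aged EGCG replicate 3 (adjusted p = 0.0967). Without aged control replicate 3, 7 genes were lower, namely Psma4, Psmb1, Psmb4, Psmb6, Psmd4, Psme1 and Psme2. Scaling turned the split. With library size only 5 genes were higher (Psmc1, Psmc4, Psmd2, Psmd3 and Psmd13) and 0 lower. Of all 13711 genes tested, 3086 were then called higher and 611 lower. On the lens fibre scale 13 were higher and 0 lower, beside 4146 and 402 of all genes. The median of all genes moved to 0.12 and 0.19, and the proteasome genes' median was 0.056 and 0.057 below it. That gap was not stable. Proteasome minus all genes, it was −0.012 with the length trend removed, −0.017 on log2(FPKM + 1) and −0.011 without aged EGCG replicate 3. On log2(FPKM + 1) without a filter it turned to 0.018. Among the 49 genes the change with EGCG rose with length (Spearman rho = 0.50, against 0.11 over all genes, and genes are not independent). The bar plot of calls by processing shows both comparisons. Retinal markers rose with EGCG in 34 of 35 genes and lens fibre markers fell in 14 of 21 (median −0.22), and the part of either in these values was not tested.

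**Figure D4:**
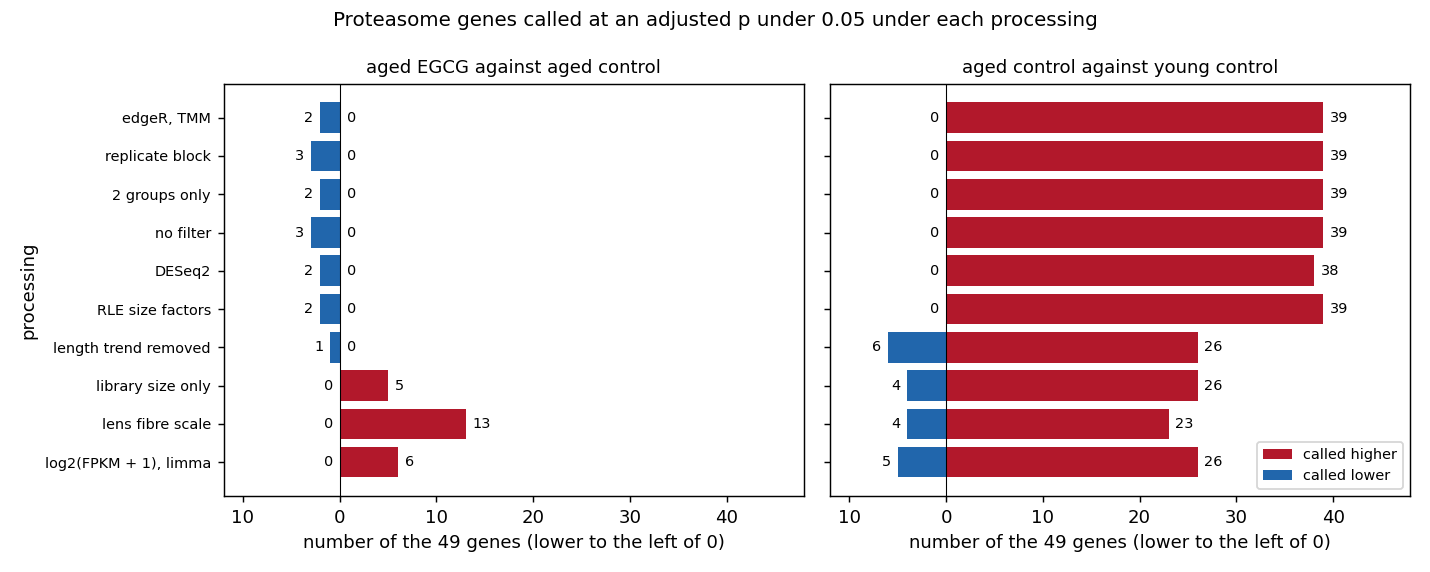
Number of the 49 proteasome genes called higher (right of 0) or lower (left of 0) at an adjusted p under 0.05 under each processing, for aged EGCG against aged control (left) and aged control against young control (right). With age 23 to 39 genes are called higher under the 10 processings drawn, while with EGCG the calls are 1 to 3 lower or 5 to 13 higher depending on the scaling.

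For the genes that were not called, the intervals of the EGCG difference were narrow where counts were high. For Psmc5 the 95% interval of the log2 fold change was −0.15 to 0.040, for Psmd4 −0.20 to −0.010, for Psmd12 −0.18 to 0.058 and for Psmb7 −0.15 to 0.077. For the catalytic subunit Psmb5 it was −0.14 to 0.17 and for Psmb6 −0.28 to −0.022. For Psmf1, estimated at 0.15, it was −0.071 to 0.37. The inducible subunits were poorly bounded, at −0.61 to 0.73 for Psmb8, −1.30 to 0.62 for Psmb9 and −0.48 to 0.33 for Psmb10, where Psmb8 and Psmb9 had 380 and 187 counts summed over all libraries.

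Compared with young control capsule, aged EGCG capsule differed much as aged control capsule did, and these comparisons share libraries. Of the 49 genes, 36 were higher and 0 lower, where 32.3% of all genes tested were called higher and 31.4% lower (63.6% in either direction; 0 lower also at an unadjusted p under 0.05 and by DESeq2), with a median log2 fold change of 0.51 against −0.016 over all genes. The libraries did not overlap in 34 genes that were higher and 1 that was lower, against 33.9% and 34.4% of all genes (68.3% either way). These calls too depended on processing. With library size only, 28 were higher and 3 lower, beside 3098 and 5575 of all 13711 genes tested. With the length trend removed, 23 were higher and 6 lower, beside 4149 and 4077 of all genes. By role, 12 of 14 constitutive core subunits, 16 of 17 cap subunits, 1 of 3 inducible subunits (Psmb10) and 2 of 4 activators (Psme1 and Psme2) were higher. For single genes, aged EGCG over young control gave 1.08 for Psmc5, 0.73 for Psmb7, 0.34 for Psma4 and 0.61 for Psme1, beside 1.13, 0.76, 0.61 and 0.87 for aged control over young control, all on the log2 scale. Psmf1 had 0.83 and 0.69.

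Genes that act with the proteasome but lie outside its Psm symbols moved in the same comparisons. Of 20 such partners, 16 were higher and 2 lower in aged control than in young control capsule, where 35.4% of all genes tested were called higher and 33.8% lower. Rad23b, which shuttles ubiquitinated proteins to the cap, had 204 ± 8.86 CPM in aged EGCG, 213 ± 13.6 in aged control and 128 ± 2.25 in young control capsule (SD, n = 3 each), a log2 fold change with age of 0.73 (edgeR adjusted p = 2.2e-16). Nfe2l1, which encodes NRF1, the transcription factor of proteasome genes (0.62), and the cap-bound deubiquitinase Uchl5 (1.15) were also higher. The ubiquitin shuttle Ubqln2 and Ddi2, the protease that activates NRF1, were lower, by log2 values of −1.01 and −0.97. With EGCG, Ubqln2 was higher than in aged control capsule (33.4 ± 2.8 and 22.5 ± 1.8 CPM, log2 fold change 0.57, adjusted p = 1.3e-05), while Pomp, the maturation factor of the core (−0.21, adjusted p = 0.017), and Nfe2l2, which encodes NRF2 (−0.42, adjusted p = 0.015), were lower. Of 6 genes for ubiquitin and its activating enzymes, 5 were higher with age, among them Rps27a (0.98), which encodes ubiquitin fused to a ribosomal protein. With EGCG, 2 of the 6 were lower, among them Rps27a (−0.51, edgeR adjusted p = 4.3e-05). The activating enzyme Uba1 was the 1 that was higher (0.17, edgeR adjusted p = 0.011). Of all genes tested, 13.8% were called higher with EGCG and 10.3% lower.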

How the data were processed

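Total RNA of 9 samples was used with the SMARTER mRNA-Seq kit, per the labels' protocols. The build was GRCm38 (mm10), per the submitters' processing notes. Aligner, counting tool, annotation and strand setting were not given in the sources used here. Deposited by the authors were whole-number read counts per gene symbol, not normalized, and FPKM values. Every gene length stated here was derived from these values, as the median over libraries of count over FPKM and library total. FPKM recomputed with that length matched within 0.01% in all 138164 nonzero entries. The match shows only that a gene's length is constant across libraries, and it is fixed in advance for a gene counted in a single library.

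Counts were tested with edgeR 4.0.16 (quasi-likelihood, TMM, filterByExpr, two-sided, Benjamini-Hochberg over 13711 genes) in R 4.3.3, with all 9 libraries in 1 fit; the biological coefficient of variation was 7.89%, and recovery was tested on simulated counts. TMM factors were 0.981 to 0.989 in aged EGCG, 0.881 to 0.926 in aged control and 1.12 to 1.13 in young control libraries. A gene was called at an adjusted p under 0.05. Alternatives used DESeq2 1.42.0, other scalings and limma 3.58.1 on log2(FPKM + 1). Intervals cover counting error and spread between libraries only.

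Named in every library were the catalytic subunits, activators and inhibitor and, per other role, the members with the largest and smallest called change; others were named after their values were seen. Members and lists were chosen with earlier results of these data known. Coordinates and shared 50-base stretches come from GENCODE M21 (48 of 49 members had transcripts), promoters from RefSeq. Some genes of the partner and marker lists are not reported here by name.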

Additional observations from a re-analysis of the deposited data

How the results depend on the processing

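Of 1440 values of 24 named genes under the alternatives, 1218 kept direction and side of the threshold, 87 lost the call, 30 gained it, 20 changed sign with a call on either side, and 85 changed sign with no call on either side (68 of them with EGCG). The members called lower with EGCG numbered 2, and 0 with library size only, on the lens fibre scale and on log2(FPKM + 1), log2(FPKM + 0.1) or log2(FPKM + 1) without a filter, and 1 with the length trend removed; those called higher numbered 0, and 5, 13, 6, 6 and 4 under the first 5 of these. Of all genes tested, the first 5 of these settings called higher 3086, 4146, 2401 and 2618 of 13711, and 2142 of 17316 without a filter. Leaving out 1 library gave 0 to 1 members higher and 1 to 7 lower. With age, 39 were higher, but 23 on the lens fibre scale, 25 on log2(FPKM + 1) without a filter and 26 each with library size only, with the length trend removed, on log2(FPKM + 1) and on log2(FPKM + 0.1), and 36 to 40 without 1 library; 4 were lower with library size only, 4 on the fibre scale, 6 with the length trend removed and 5, 5 and 4 on FPKM. In aged EGCG against young control capsule, 36 were higher, but 28 with library size only, 29 on the fibre scale and 23 with the length trend removed. On log2(FPKM + 1), log2(FPKM + 0.1) and log2(FPKM + 1) without a filter, 30, 30 and 29 were higher. DESeq2 gave 33, RLE size factors 34, and leaving out 1 library 34 to 37. Lower were 3 with library size only, 1 on the fibre scale, 6 with the length trend removed and 2, 2 and 2 on FPKM. The cause was not tested. On raw counts the inducible share was 3.13% in aged EGCG, 3.15% in aged control and 3.39% in young control capsule, and the 19S to 20S ratio 1.91, 1.82 and 1.58; as a ratio of medians it was 0.993, 0.968 and 0.721. Without 1 library these spanned 2.45% to 2.79%, 2.52% to 2.81% and 2.69% to 3.11%, and 1.22 to 1.25, 1.15 to 1.21 and 1.01 to 1.02.

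With a call on either side, signs of the named genes turned with age for Psma2 (−0.071 with library size only, −0.11 on the fibre scale, −0.23 with the length trend removed, −0.069, −0.070 and −0.069 on FPKM), Psme3 (−0.28, −0.32 on the fibre scale, −0.26, −0.27 and −0.26 on FPKM), Psme4 (−0.042, −0.084, −0.034, −0.037 and −0.034) and Psmd3 (−0.025 on the fibre scale). The uncalled estimate of Psmb8 turned too, down to −0.18, and the lowest estimates of Psmc6, Psma3, Psma5 and Psmd10 were −0.26, −0.29, −0.26 and −0.16. In aged EGCG against young control capsule called signs turned with the length trend removed for Psma2 (−0.19), Psma4 (−0.039) and Psme2 (−0.031). Library size only moved the median of all genes to −0.30 with age, −0.21 in aged EGCG against young control and 0.12 with EGCG. Same-numbered libraries deviated with correlations of −0.0202 to 0.0298, and differently numbered ones with −0.0210 to 0.0365. No shared deviation of same-numbered libraries was seen, but 3 libraries per group cannot exclude a pairing. With the replicate number as a block, 3 members were lower and 0 higher with EGCG. In the comparisons of aged control and aged EGCG with young control capsule, 39 and 36 were then higher. Without the 3 symbols that are not subunits, 37 of 46 were higher with age and 2 lower with EGCG.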
